A study of Mus musculus with 4 samples.

Results

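A group of 56 genes stood out in mouse lung club cells at the end of 3 weeks in doxycycline: their signal was at least 4-fold above that of the freshly isolated cells, and at least 4-fold above that of cells grown for 2 further weeks without the drug. They were chosen from 23185 named genes by the size of the peak, which is the log2 signal at 3W+Dox minus the larger of the Day0 and 3W+Dox+2W-Dox signals. A peak of at least 2 log2 units was required, with a 3W+Dox signal of 6.67 or more, which is the median over the 4 arrays. Before families were set aside, 73 genes met both conditions. The rule left out keratins, mucins, trefoil factors, small proline-rich proteins and several other named families, which accounted for 17 of the 73. The signals on the Day0, 3W+Dox and 3W+Dox+2W-Dox arrays chose the members, so these values are given as a description and carry no test. The iPS array was not compared by the rule.

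The study hybridised total RNA of 4 cell populations to Affymetrix arrays, with 1 array per population. Day0 was club cells freshly isolated from adult mouse lung, 3W+Dox was isolated club cells cultured for 3 weeks with doxycycline and called Club-iPL (induced progenitor-like) cells, 3W+Dox+2W-Dox was those induced cells after 2 weeks in medium without the drug, and iPS was induced pluripotent stem cells made from club cells. The study's title describes an interrupted reprogramming, in which doxycycline switches reprogramming on for a limited time. The labels give no strain, transgene, driver, sort, animal number or passage, and no culture kept for 3 weeks without the drug was analysed here, so that doxycycline and time in culture cannot be told apart.

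Without replicates, the spread between cultures cannot be estimated, and no difference below has a test or an error. The number of arrays limits the precision. In bulk RNA, fewer cells of a type and less RNA per cell cannot be told apart. The labelled identities were checked against marker genes. The club cell secretory protein gene Scgb1a1 read 13.52, 12.62 and 13.04 log2 units on the Day0, 3W+Dox and 3W+Dox+2W-Dox arrays, and 4.18 in iPS cells. Most other club markers were lower in culture, 9 of 17 at least 4-fold below Day0 at 3W+Dox. The list's mean was 12.55, 9.80 and 10.42 over those arrays and 5.92 in iPS cells. Among these, Scgb3a2, another secretoglobin, read 10.21, 6.25 and 8.81, and the secreted defence protein gene Bpifa1 read 13.28, 6.67 and 8.28. Nanog, a pluripotency factor, read 6.27, 5.83 and 5.96 on the same 3 arrays and 12.87 in iPS cells. Markers of ciliated cells and of alveolar type 2 cells were also bright in the isolate, with list means of 9.30 and 11.58 at Day0.

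Club cells are secretory cells of the small airways that detoxify inhaled compounds and can act as progenitors after injury. Injured lining epithelia, in airway, stomach, bladder and skin alike, pass through states in which secretory, squamous and wound-associated genes are switched on and later switched off again. Of the 56 members, 11 belong to at least 1 of 29 lists of pathway and marker genes drawn up for these data. The lists were drawn up with earlier results known, and the share of all named genes in them was not computed. The 11 is therefore a bare count. Of all 23185 named genes, 56 are members. The members include 3 of 24 measured gastric and foregut surface genes and 0 of 21 measured squamous markers. A further 3 squamous markers met both conditions of the rule but belong to families that it left out, so the 0 is set in part by the rule.

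Across all named genes, 4.31% had a 3W+Dox signal at least 4-fold above Day0, and 0.47% a 3W+Dox+2W-Dox signal at least 4-fold below 3W+Dox, each with the brighter array no lower than the median. Both held at once for 0.315%, and the 56 members are among these by construction. The peaks ran between 2.00 and 6.25 log2 units with a median of 2.45, of which 19 reached 8-fold and 9 reached 16-fold. The 3W+Dox+2W-Dox signal set the peak for 41 members and the Day0 signal for the other 15. At Day0, 42 of the 56 lay below the median of all values, and 27 lay below it on all 3 arrays other than 3W+Dox. Of all named genes, 49.6% lay below the median at Day0. Of the 927 other genes at least 4-fold above Day0 at 3W+Dox, 651 (70.2%) did, a share close to that of the members. The rule favours low signals at Day0 and at 3W+Dox+2W-Dox, so low Day0 signals do not set the members apart from those 927. The 27 is a bare count. The table has no detection call, so a signal below the median is called dim here, not absent. The weakest members inside the threshold were Tenm3 and Tmem45b, both with a peak of 2.00, Gsdmc3 with 2.01, Apol7a with 2.02 and Mmp9 with 2.03. Just outside it lay the laminin gene Lama3 and the deiminase gene Padi2 with 1.99, Fgf23 and Ptx3 with 1.96, and C1qtnf3 with 1.95. Tmem45b read 5.56, 7.80 and 5.80 over the time course and 6.34 in iPS cells, and Apol7a read 5.39, 7.41 and 5.14, and 4.79 in iPS cells. Lama3 read 6.47, 9.98 and 7.98, and 8.05 in iPS cells. Fgf23, a hormone gene of phosphate balance, read 5.50, 7.50 and 5.54, and 5.81 in iPS cells. Ptx3, a pentraxin of innate defence, read 6.24, 9.0 and 7.04, and 6.38 in iPS cells, and C1qtnf3 read 5.54, 11.38 and 9.44, and 5.64 in iPS cells. The genes on either side of the threshold differ by hundredths of a log2 unit in the size of the peak.

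**Figure D1:**
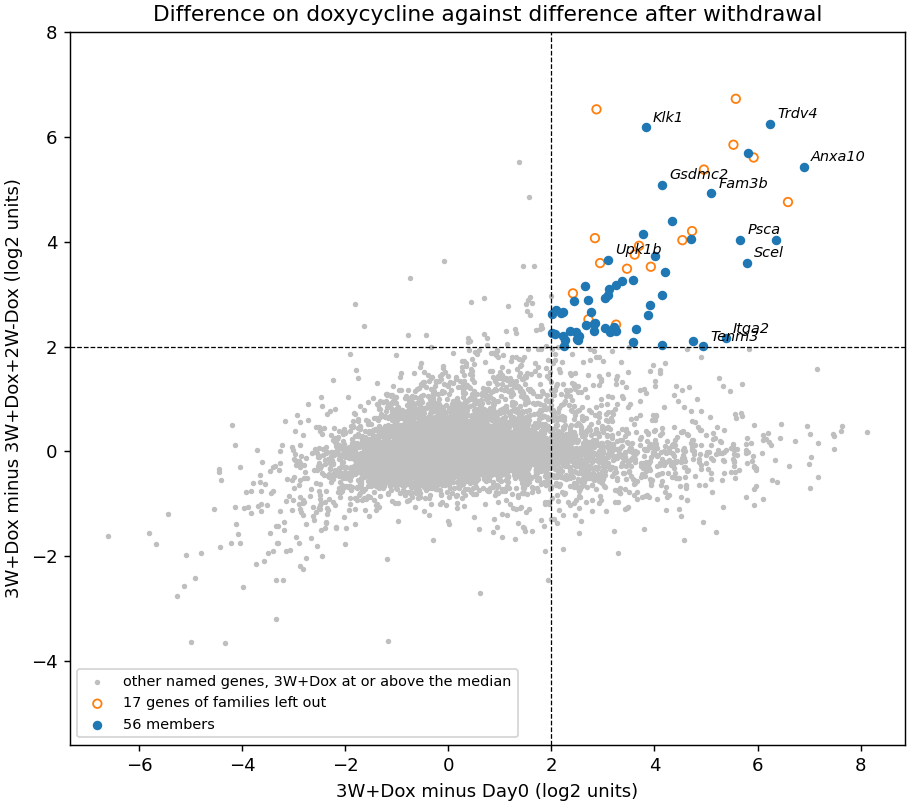
Difference between 3W+Dox and Day0 (x axis, log2 units) against the difference between 3W+Dox and 3W+Dox+2W-Dox (y axis, log2 units) for each named gene whose 3W+Dox signal was at or above the median. Blue points are the 56 members, open orange points the 17 genes of families left out by the rule, and dashed lines mark 2 log2 units. Anxa10 lies farthest to the right among the members, and Itga2 and Tenm3 lie low, close to the horizontal line.

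The largest difference between 3W+Dox and Day0 among the members was that of Anxa10, an annexin that binds calcium and phospholipid and is known as a product of gastric surface epithelium. Anxa10 read 4.69 at Day0, 11.59 at 3W+Dox and 6.15 at 3W+Dox+2W-Dox, and 4.43 in iPS cells. It was dim on every array but one, and the 3W+Dox signal was 119-fold that of Day0. After withdrawal it remained 1.46 log2 units above Day0. Its RefSeq promoter window (GRCm38.p6) is shown because it holds 2 matches to the letters TGANTCA, the element bound by AP-1, a pair of proteins of the Fos and Jun families. Capitals mark these matches and the letters TATAAA of a TATA box, and the window ends at the base before the annotated start.
Anxa10, chr8:62123194-62123443, - strand: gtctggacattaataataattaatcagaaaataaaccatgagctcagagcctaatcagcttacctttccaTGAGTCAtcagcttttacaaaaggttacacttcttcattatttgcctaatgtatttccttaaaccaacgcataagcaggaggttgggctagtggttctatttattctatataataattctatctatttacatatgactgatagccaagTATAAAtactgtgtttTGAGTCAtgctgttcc
Anxa9, a relative of Anxa10, read 5.61, 9.82 and 6.39 on the arrays of the time course and 5.92 in iPS cells. Of the 12 annexin genes measured, 11 reached the median on at least 1 array, and Anxa10, Anxa9 and Anxa8 had peaks of at least 2-fold. Anxa8 read 9.41, 11.32 and 10.25, a peak of 1.07 log2 units, and 8.31 in iPS cells. The other 8 annexins that reached the median had peaks of 0.59 or less.

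Surface and membrane proteins made up 14 of the members, with peaks between 2.00 and 4.05 log2 units. Psca, a small lipid-anchored protein of the Ly6 family found on gastric, bladder and prostate epithelium, read 5.48, 11.14 and 7.10 over the time course and 5.35 in iPS cells. Msln encodes mesothelin, a lipid-anchored adhesion protein of mesothelium that is also raised in injured and transformed epithelia, and it read 8.46, 11.67 and 9.30, with 8.43 in iPS cells. Both were lower again without the drug, Msln to within 0.84 log2 units of Day0 and Psca to 1.63 above it. Cwh43, which in yeast remodels the lipid of such anchors, read 5.32, 10.03 and 5.97, and 5.49 in iPS cells. Adgrf1, an adhesion-type G protein-coupled receptor, was dim on all arrays but 3W+Dox, at 4.03, 7.29 and 4.12 over the time course and 4.36 in iPS cells.

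Among the uroplakins, which form the rigid plaques on the apical face of bladder umbrella cells, members and non-members moved in opposite directions. Upk1b, a tetraspanin that pairs with uroplakin 3 proteins, read 8.76 at Day0, 11.86 at 3W+Dox and 8.20 at 3W+Dox+2W-Dox. Upk3bl, a uroplakin 3-like protein, read 6.35, 10.37 and 6.63. Upk1a and Upk2, which pair with each other in the plaque, were at least 4-fold lower at 3W+Dox than at Day0. Upk1a read 10.58, 6.39 and 6.82 over the time course, and Upk2 read 10.04, 6.50 and 6.97. Neither had returned toward its Day0 signal after withdrawal by more than 1 log2 unit. In iPS cells Upk1b read 5.67, Upk3bl 6.79, Upk1a 7.45 and Upk2 7.70, and Upk1b was the only one of these 4 that was dim there. The remaining pair, Upk3a and Upk3b, stayed between 5.75 and 7.04 on all 4 arrays.

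A pair of other tetraspanins, scaffold proteins that cross the membrane repeatedly, were members among 19 tetraspanin genes measured. Tspan15, a partner of the protease ADAM10, read 7.60, 10.38 and 7.71 over the time course and 7.98 in iPS cells. Tspan8, found in digestive epithelia, read 5.52, 8.77 and 6.47, and 4.07 in iPS cells. Tspan18 had the next largest peak of the family, at 1.19 log2 units. Paqr5, a membrane receptor for progesterone-related steroids, read 7.38, 9.81 and 6.94 and 6.74 in iPS cells. The collagen receptor subunit Itga2 and the teneurin Tenm3, a synaptic adhesion protein in neurons, are described with the genes that stayed high.

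Proteins that bind calcium, build the cell envelope, or work on the cytoskeleton, granules and pores made up 15 members. Scel encodes sciellin, a precursor of the cornified envelope of stratified epithelia, and read 4.08, 9.87 and 6.27 over the time course and 3.72 in iPS cells. Capn9, a calcium-dependent protease of gastric mucosa, read 4.98, 8.10 and 4.99, and 5.06 in iPS cells. It stood at its Day0 signal, within 0.01 log2 units, after 2 weeks without the drug. Of 13 calpain genes measured, 4 had peaks of at least 2-fold, and Capn13, another calpain of the digestive tract, went lower than Day0 after withdrawal, at 7.23, 8.69 and 5.16.

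Padi1, which converts arginine to citrulline in keratinocyte proteins, read 6.13, 8.31 and 5.67, and its neighbour in the genome, Padi2, read 7.74, 9.87 and 7.88. In iPS cells Padi1 read 6.15 and Padi2 read 8.64. Bcas1, known from oligodendrocytes and amplified in breast cancer, read 7.63, 10.99 and 7.73, and 7.02 in iPS cells. The small GTPase Rab37, which acts in secretory granule release, read 5.63, 8.68 and 5.76, and 6.37 in iPS cells. Both Bcas1 and Rab37 were within 0.13 log2 units of Day0 after withdrawal. Avil encodes advillin, an actin-binding protein that marks tuft cells and sensory neurons, and read 6.32, 9.0 and 6.59, with 5.93 in iPS cells. It was the only member among 10 measured neuroendocrine and tuft cell markers, with a list mean of 7.07, 6.64 and 6.41 over the time course. The tuft cell genes Trpm5 and Gnat3 were dim on all 4 arrays, and Dclk1 read 7.90, 8.85 and 9.65. Bcl2l15, a distant relative of the BCL2 regulators of cell death, read 4.28, 7.11 and 4.67, and 4.05 in iPS cells.

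Gasdermins open pores in the plasma membrane once a protease cuts them, and the C group lies in tandem copies in the mouse. Gsdmc2 read 4.33 at Day0, 8.47 at 3W+Dox and 3.38 at 3W+Dox+2W-Dox, and Gsdmc3 read 5.05, 7.06 and 4.44. Both were lower after withdrawal than at Day0, with differences of -0.95 and -0.62 log2 units. On both of those arrays their signals lay below the 25th percentile of all values, 5.07, so these differences are between dim signals. Both were also dim in iPS cells, at 3.59 and 4.04. They are next to each other on the chromosome with 0 measured genes between them. How far the probes of these near copies share targets was not tested, so the 2 signals may not be separate. The other 5 gasdermin C genes measured had peaks under 2-fold, or stayed below the median.

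Secreted proteins made up 10 members. The cytokine-like protein encoded by Fam3b, known from pancreatic islets, read 4.54, 9.64 and 4.71 over the time course and 4.59 in iPS cells. A clone-named gene, 2300002M23Rik, was picked out after its values were seen because its peak of 5.70 log2 units ranked just below that of Trdv4. It read 6.37, 12.18 and 6.48, with 6.30 in iPS cells. Both genes were within 0.17 log2 units of Day0 after withdrawal and in iPS cells. Cdsn, which encodes a cornified-layer adhesion protein and lies next to 2300002M23Rik, read 5.96, 9.13 and 7.22, and 7.0 in iPS cells. Esp8, a member of a pheromone-like family of exocrine gland peptides, read 3.67, 6.77 and 3.78, and 3.66 in iPS cells.

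Tissue kallikreins are serine proteases of glands and ducts that are encoded by a recently duplicated cluster in the mouse. Klk1 read 6.76 at Day0, 10.59 at 3W+Dox and 4.41 at 3W+Dox+2W-Dox, and 7.92 in iPS cells. It was the only member at least 2-fold lower at 3W+Dox+2W-Dox than at Day0, against 7.76% of all named genes, and 161% of its increase was undone. Klk1b11 read 6.72, 9.37 and 6.21, and 6.11 in iPS cells. Klk1b22 moved the other way between Day0 and 3W+Dox, from 7.99 to 4.33. It read 3.33 at 3W+Dox+2W-Dox and 3.76 in iPS cells. Of 12 kallikrein 1 genes measured, 4 reached the median on at least 1 array, and the fourth, Klk1b24, read 6.69, 6.31 and 5.68.

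The promoter windows of Klk1b11 and Klk1b22 (RefSeq, GRCm38.p6, the 250 bases before the start) are shown because the genes had opposite profiles while the windows are close copies. The full 300-base windows were identical at 84.5% of 303 aligned columns. Capitals mark the longest run that they share, 25 bases beginning 77 bases before the start of Klk1b11 and 78 before that of Klk1b22.
Klk1b11, chr7:43995627-43995876, + strand: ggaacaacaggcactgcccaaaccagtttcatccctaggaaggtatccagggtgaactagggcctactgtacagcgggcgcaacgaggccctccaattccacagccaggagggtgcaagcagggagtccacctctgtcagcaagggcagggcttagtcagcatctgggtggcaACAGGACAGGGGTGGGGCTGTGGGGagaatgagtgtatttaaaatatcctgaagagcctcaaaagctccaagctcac
Klk1b22, chr7:44112423-44112672, + strand: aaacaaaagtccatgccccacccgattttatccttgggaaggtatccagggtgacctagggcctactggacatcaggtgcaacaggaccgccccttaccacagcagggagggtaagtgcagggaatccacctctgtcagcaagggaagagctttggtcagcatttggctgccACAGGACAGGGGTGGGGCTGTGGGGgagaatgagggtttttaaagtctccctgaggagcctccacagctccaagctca
The Klk1 window was identical to that of Klk1b11 at 81.0% of 211 aligned columns and to that of Klk1b22 at 82.2% of 197. Transcripts of these copies are similar too, and how far their probes share targets was not tested. On the chromosome, 7 measured genes lie between Klk1b11 and Klk1.

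Pla2g10, a secreted phospholipase A2 of airway and gut epithelium that releases arachidonic acid, read 6.25, 10.03 and 5.87 over the time course. It differed from most members in iPS cells, where it read 9.08. Pcolce2, which enhances the trimming of procollagen, read 6.30, 10.45 and 7.47, and 10.13 in iPS cells. Mmp9, the gelatinase of wound edges and neutrophils, read 6.25, 10.40 and 8.37, and 7.93 in iPS cells. These 3 thus differed after withdrawal, with a difference from Day0 of -0.38 log2 units for Pla2g10, 1.17 for Pcolce2 and 2.12 for Mmp9.

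Transporters and enzymes made up 9 members, with peaks no larger than 2.79 log2 units. Ces2g, a carboxylesterase that hydrolyses drugs and lipid esters, read 4.25, 8.17 and 5.38 over the time course and 4.43 in iPS cells. Other carboxylesterases of the lung moved the other way, with 4 of the 18 measured at least 4-fold lower at 3W+Dox than at Day0, all of the Ces1 group. Ces1d, picked out after its values were seen, read 13.13, 9.72 and 11.61, and 3.41 in iPS cells. Pde9a, which degrades cyclic GMP, read 7.27, 9.97 and 7.08, and 8.83 in iPS cells. Slc37a2, an exchanger of sugar phosphates, read 6.31, 10.19 and 7.59, and 7.06 in iPS cells.

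Slc9a4, the sodium-proton exchanger of gastric parietal cells, read 6.11, 9.16 and 6.80, and 5.13 in iPS cells. Fut2, the fucosyltransferase that makes secretor-type blood group sugars on mucins, read 8.04, 10.53 and 8.38, and 6.17 in iPS cells. Both were dimmer in iPS cells than at Day0, with differences of -0.98 log2 units for Slc9a4 and -1.87 for Fut2. The phospholipid flippases Atp10b and Atp8a2 were the members among 14 measured genes of their type. Atp10b read 8.50, 11.64 and 9.37, and 4.91 in iPS cells, whereas Atp8a2 read 5.70, 7.77 and 5.53, and 5.83 in iPS cells. Atp10b was among the members already above the median at Day0, and Atp8a2 was dim on all arrays but 3W+Dox.

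The other 8 members include signalling and innate immune genes. Tnip3, an inhibitor of NF-κB signalling that binds the A20 protein, read 6.02, 10.77 and 8.67 over the time course and 5.23 in iPS cells. Ifit1bl1, a relative of the interferon-induced Ifit genes, read 5.38, 8.22 and 5.76, and 3.41 in iPS cells. The adaptor gene She read 5.51, 9.08 and 5.81, and 6.52 in iPS cells. AA467197 was picked out after its values were seen. It read 5.29, 11.65 and 7.61, the second largest difference between 3W+Dox and Day0 among the members, and 6.16 in iPS cells.

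The largest peak of all belonged to Trdv4, a variable segment of the T cell receptor delta locus and the only member that is not a complete protein-coding gene. It read 3.69 at Day0, 9.94 at 3W+Dox and 3.69 at 3W+Dox+2W-Dox, and 3.45 in iPS cells, a peak of 6.25 log2 units. Its rank rests on dim signals. With dim values raised to the 25th percentile of all values, 5.07, its peak was 4.87, below 5.70 for 2300002M23Rik and 5.44 for Anxa10. T cell genes did not share this profile. Of 12 measured genes of a T cell list, 8 were dim on all 4 arrays, among them Cd3d, Cd3e and Cd3g, which encode the receptor's signalling chains. The only gene of the list that was at least 4-fold above Day0 at 3W+Dox was Trbc2, a constant segment of the receptor beta chain, which read 6.29, 9.78 and 10.83, highest at 3W+Dox+2W-Dox. The list's mean was 5.68, 5.80 and 6.01 over the time course and 5.96 in iPS cells.

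Another 12 members of these groups had peaks between 2.00 and 2.30 log2 units. They include the membrane proteins Shisa3, Tmem45b and Ms4a8a, the actin-binding protein gene Ablim3, the calcium-binding protein gene Tesc, the syntenin relative Sdcbp2 and the synaptotagmin Syt8. The others are the serine protease gene Prss32, the neuropeptide gene Calcb, the transporter gene Slc23a3, Apol7a and Ankdd1b. Their signals at 3W+Dox ran between 7.41 for Apol7a and 10.01 for Sdcbp2, and in iPS cells between 4.79 for Apol7a and 8.34 for Tesc.

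**Figure D2:**
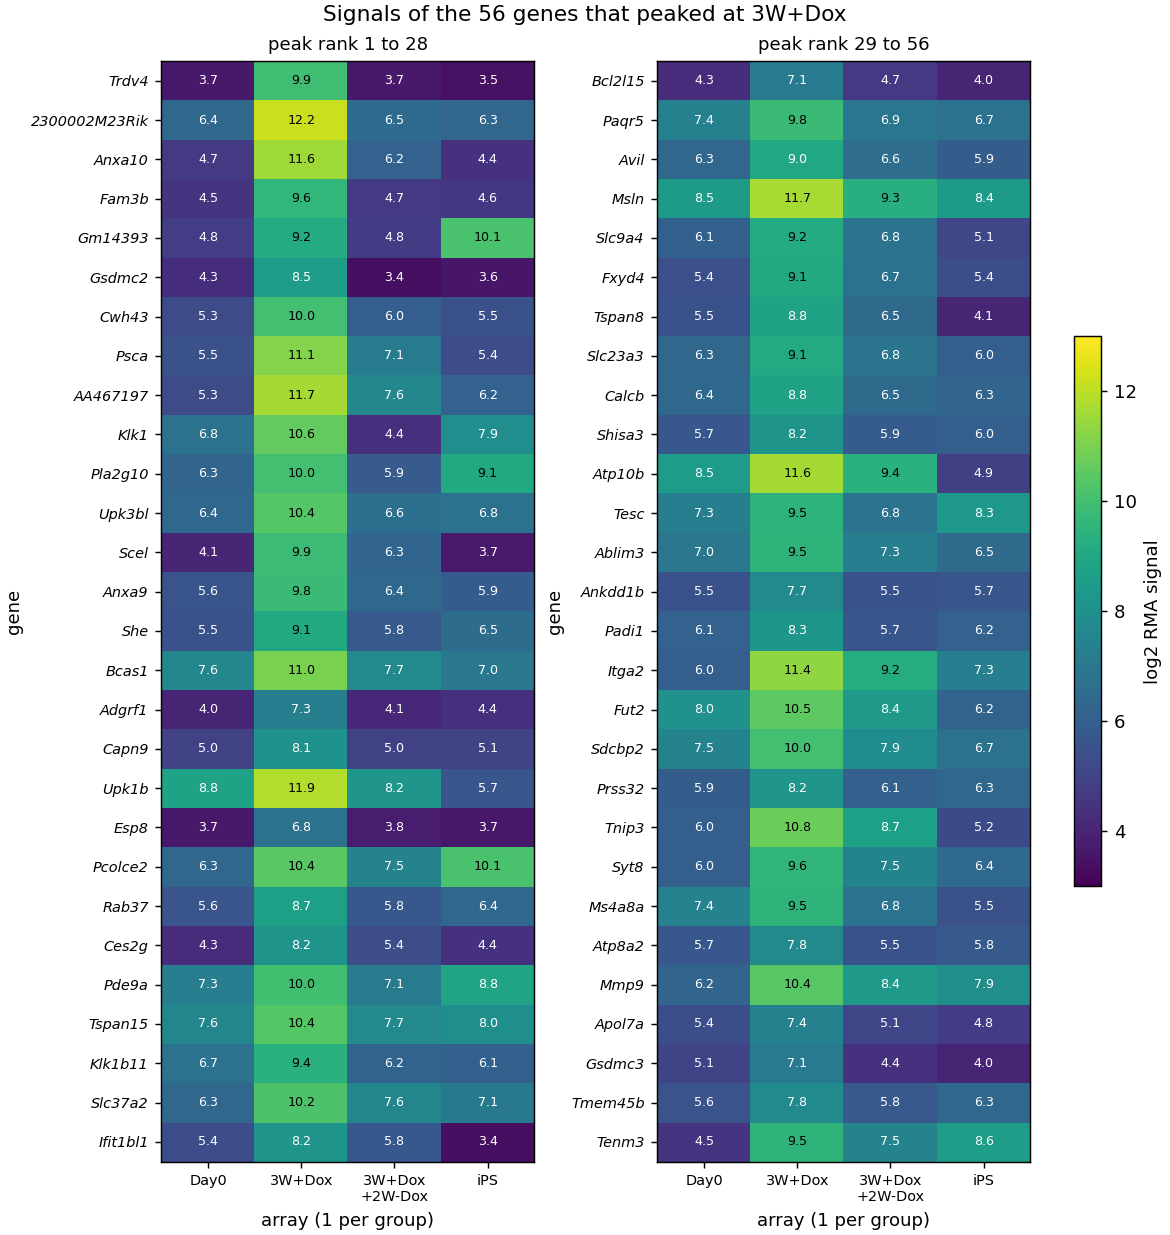
Log2 signal of the 56 members on the 4 arrays, in order of the size of the peak, with the value written in each cell and shown by colour. The 3W+Dox column is the brightest in 55 rows, and the exception is Gm14393, whose iPS signal was higher.

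How far the members returned after the drug was removed differed among them. The share of the increase at 3W+Dox that was undone ran between 40.1% and 161% with a median of 91.8%. It was at least 80% in 39 members and over 100% in 15. Under 60% was undone in 5 members, Itga2, Tenm3, Tnip3, Mmp9 and Syt8. The rule bounds these values from below, because it required a 4-fold lower signal after withdrawal.

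Itga2, which forms a collagen receptor with integrin beta 1, read 5.97, 11.36 and 9.20 over the time course and 7.30 in iPS cells. Tenm3 read 4.55, 9.49 and 7.49, and 8.57 in iPS cells. Syt8, a synaptotagmin of epithelial secretion, had 58.3% of its increase undone. In each of these the 3W+Dox signal was far above Day0, so a 4-fold lower signal after withdrawal still left Itga2 3.23 and Tenm3 2.94 log2 units above Day0. In all, 10 of the 56 were at least 2-fold above Day0 at 3W+Dox+2W-Dox with the brighter array at or above the median, against 7.85% of all named genes. Besides the 3 just named, these were Tnip3, Mmp9, AA467197, Psca, Fxyd4, Slc37a2 and Pcolce2. Without the condition on brightness the count was 13 of 56, with Scel 2.19, Anxa10 1.46 and Ces2g 1.12 log2 units above Day0 while still dim. Of the other 927 genes that were 4-fold higher at 3W+Dox, 878 were at least 2-fold above Day0 with the condition on brightness. These 927 are the genes that were not 4-fold lower after withdrawal, so their contrast with the members follows from the rule. Fxyd4, a regulator of the sodium pump, read 5.43, 9.08 and 6.74, and 5.41 in iPS cells.

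The rule did not compare the iPS array, but it chose genes with low signals on 2 of the other arrays, Day0 and 3W+Dox+2W-Dox. In iPS cells, 40 of the 56 members (71.4%) lay below the median of all values. Of the 17 genes in the families left out, 14 lay below it. Of the 927 other genes that were at least 4-fold above Day0 at 3W+Dox, 288 (31.1%) lay below it, and of all named genes 48.9%. With dim set at the 25th percentile of all values instead, the members were close to all genes, at 15 of 56 (26.8%) and 24.2%, against 6.26% of the other 927. Calcium, envelope and cytoskeleton genes were dim in iPS cells in 12 of 15 cases, transporters and enzymes in 7 of 9, signalling and other genes in 7 of 8, surface proteins in 8 of 14 and secreted proteins in 6 of 10. Counted against 3W+Dox, 47 members were at least 4-fold lower in iPS cells, against 5.16% of all named genes and 445 (48.0%) of the other 927. This count shares the 3W+Dox array with the rule, which chose genes bright there.

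The median difference, iPS minus Day0, was 0.01 log2 units over the members, -0.29 over the families left out, 1.31 over the other 927 genes and 0.00 over all named genes. The iPS and Day0 signals were within 2-fold of each other in 39 members, while iPS was at least 2-fold higher in 10 and at least 2-fold lower in 7. These shares, 69.6%, 17.9% and 12.5%, were near those of all named genes, at 71.8%, 14.5% and 13.7%. A 4-fold difference was seen in few. Gm14393, Tenm3, Pcolce2 and Pla2g10 were at least 4-fold higher in iPS cells than at Day0, against 4.89% of all named genes, and Upk1b and Atp10b were at least 4-fold lower, against 5.9%. These 4 higher members were also the ones whose iPS signal came within 2-fold of the 3W+Dox signal or above it. Gm14393, a predicted gene picked out after its values were seen, read 4.83, 9.17 and 4.77 over the time course and 10.12 in iPS cells. Among the other 927 genes, 209 had an iPS signal within 2-fold of 3W+Dox or above it. The name of a peak only on doxycycline thus describes the time course: in iPS cells 16 members were at or above the median, and 4 of them came within 2-fold of their 3W+Dox signal or above it.

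**Figure D3:**
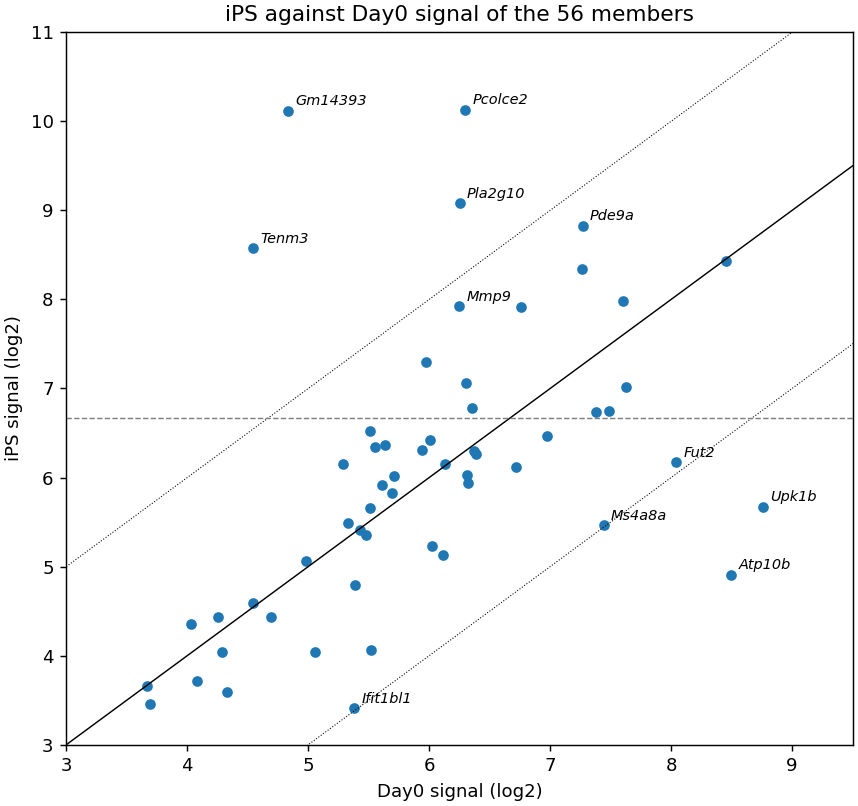
Signal in iPS cells (y axis, log2) against signal at Day0 (x axis, log2) for the 56 members. The solid line marks equal signals, dotted lines mark 4-fold differences and the grey dashed line marks the median of all values. Most points lie near the solid line and below the dashed line, with Gm14393, Tenm3, Pcolce2 and Pla2g10 above the upper dotted line and Upk1b and Atp10b below the lower one.

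Wider pathway lists show which neighbours of the members followed the same course. The peak is taken from the 3 arrays that chose the members, so members in a list have it by construction. The lists were also chosen with earlier results of these data known. The counts by list are therefore a description and carry no test. Across all named genes, 1.14% had a peak of at least 2-fold with a bright 3W+Dox signal. Of 24 genes known from gastric and foregut surfaces, 6 had such a peak: the members Anxa10, Capn9 and Psca, and Capn13, Ctse and Gkn1. Ctse, the aspartic protease cathepsin E of gastric surface cells, read 6.48, 12.17 and 10.88 over the time course and 5.31 in iPS cells, so most of its increase remained after withdrawal. A further 10 genes of the list were dim on all 4 arrays, among them Lipf and Cblif, which encode gastric lipase and intrinsic factor.

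Of 23 measured genes of regenerating epithelium, 10 were at least 4-fold above Day0 at 3W+Dox and 0 were 4-fold lower. A peak of at least 2-fold was found for 9 of the 23, including the members Anxa10 and Msln. The others peaked less: Sprr1a, a cornified envelope precursor, read 7.52, 10.87 and 9.16, and S100a14, a calcium-binding protein of epithelia, read 7.79, 9.53 and 7.58. In iPS cells Sprr1a read 6.56 and S100a14 read 6.17. Ccn2, a matrix protein, read 8.86, 12.89 and 12.76, so a high 3W+Dox signal in this list did not always come with a lower one after withdrawal.

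Squamous and goblet cell genes, many of which belong to families that the rule left out, had similar courses in part. Of 21 squamous markers, 6 had a peak of at least 2-fold, among them Krt13, a keratin of non-cornified stratified epithelium, at 5.96, 10.92 and 5.54. In contrast, 8 of the 21 were dim on all 4 arrays, among them Lor, Flg and Krtdap of the cornified layer. Of 13 goblet cell markers, 4 had such a peak, and these were Muc5ac, Clca1, Tff1 and Gcnt3. Another 5 were at least 2-fold lower at 3W+Dox than at Day0, among them Agr2 and Tff2 at least 4-fold. Clca1, a protein secreted with airway mucus, read 9.15, 12.02 and 5.49, and 6.09 in iPS cells.

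Of 28 genes for mucin sugar chains, 4 had such a peak, the member Fut2 and the enzyme genes B3gnt3, Chst4 and Galnt7. Each of the other 24 lists held 0 to 2 such genes, including 2 of 12 basal cell markers, Aqp3 and Itga6. Among 29 inflammatory epithelial genes 2 had a peak of at least 2-fold, Tnip1 and Zbp1, and among 26 genes of EGF family ligands and MAPK feedback there was 1. No gene of 13 in a list of STAT feedback genes, of 20 stress response genes or of 24 proliferation genes had one. In the list of 25 pluripotency genes there was 1. It was Klf4, a zinc finger factor used in reprogramming and also active in barrier epithelia, which read 8.60, 10.72 and 9.44, and 10.67 in iPS cells.

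Markers of other cells moved between the same arrays. Of 19 fibroblast markers, 18 were at least 4-fold above Day0 at 3W+Dox and 0 had a 2-fold peak. The list's mean was 6.17 at Day0, 11.46 at 3W+Dox and 11.55 at 3W+Dox+2W-Dox, and 9.34 in iPS cells. Of 22 leukocyte markers, 11 were 4-fold higher at 3W+Dox and 0 had a 2-fold peak, with means of 5.81, 7.56 and 7.65, and 5.98 in iPS cells. The part of these cells in the members' 3W+Dox signals was not tested.

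Epithelial lists differed in their course after withdrawal. In a list of 29 general epithelial genes that was written after the values were seen, 11 were at least 2-fold lower at 3W+Dox+2W-Dox than at 3W+Dox. Of all 23185 named genes, 437 were, each with the brighter array at or above the median. The median difference in the list was -0.87 log2 units, and the list's mean was 10.64, 10.09 and 9.25 over the time course. Epcam, an adhesion protein of most epithelia, read 11.19, 10.77 and 10.18, and Krt7, a keratin of simple epithelia, read 10.52, 12.34 and 9.98. The part of this epithelial difference in the members' course was not tested. Ciliated cell markers went the other way, with a mean of 9.30 at Day0, 6.11 at 3W+Dox and 7.95 at 3W+Dox+2W-Dox, and 18 of 20 were at least 2-fold higher after withdrawal. The median difference after withdrawal was 0.56 log2 units for club, 0.29 for alveolar type 2, 0.28 for alveolar type 1 and 0.27 for basal markers. It was -0.34 for squamous markers, -0.14 for goblet markers and -0.12 for epithelial transcription factors, against 0.03 over all named genes.

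**Figure D4:**
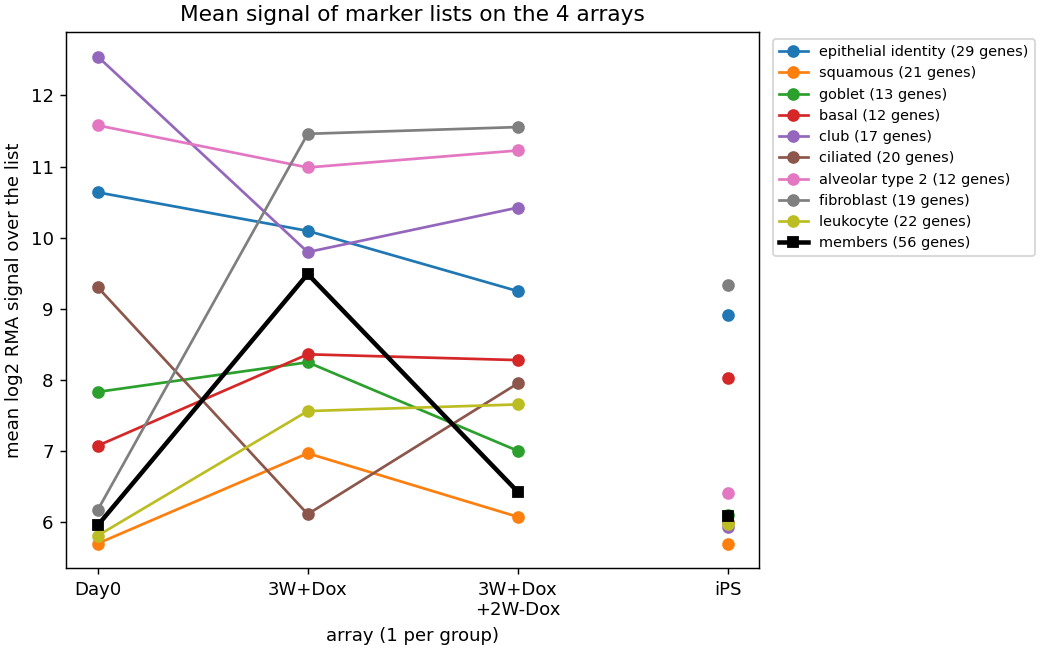
Mean log2 signal of marker lists (coloured) and of the 56 members (black squares) on each array, with lines joining the time course and the iPS point apart. Only changes along a line can be read, since levels of different genes are not comparable. The members peak at 3W+Dox, fibroblast and leukocyte lists are higher at 3W+Dox and at 3W+Dox+2W-Dox than at Day0, and the ciliated list is lowest at 3W+Dox within the time course.

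**Figure D5:**
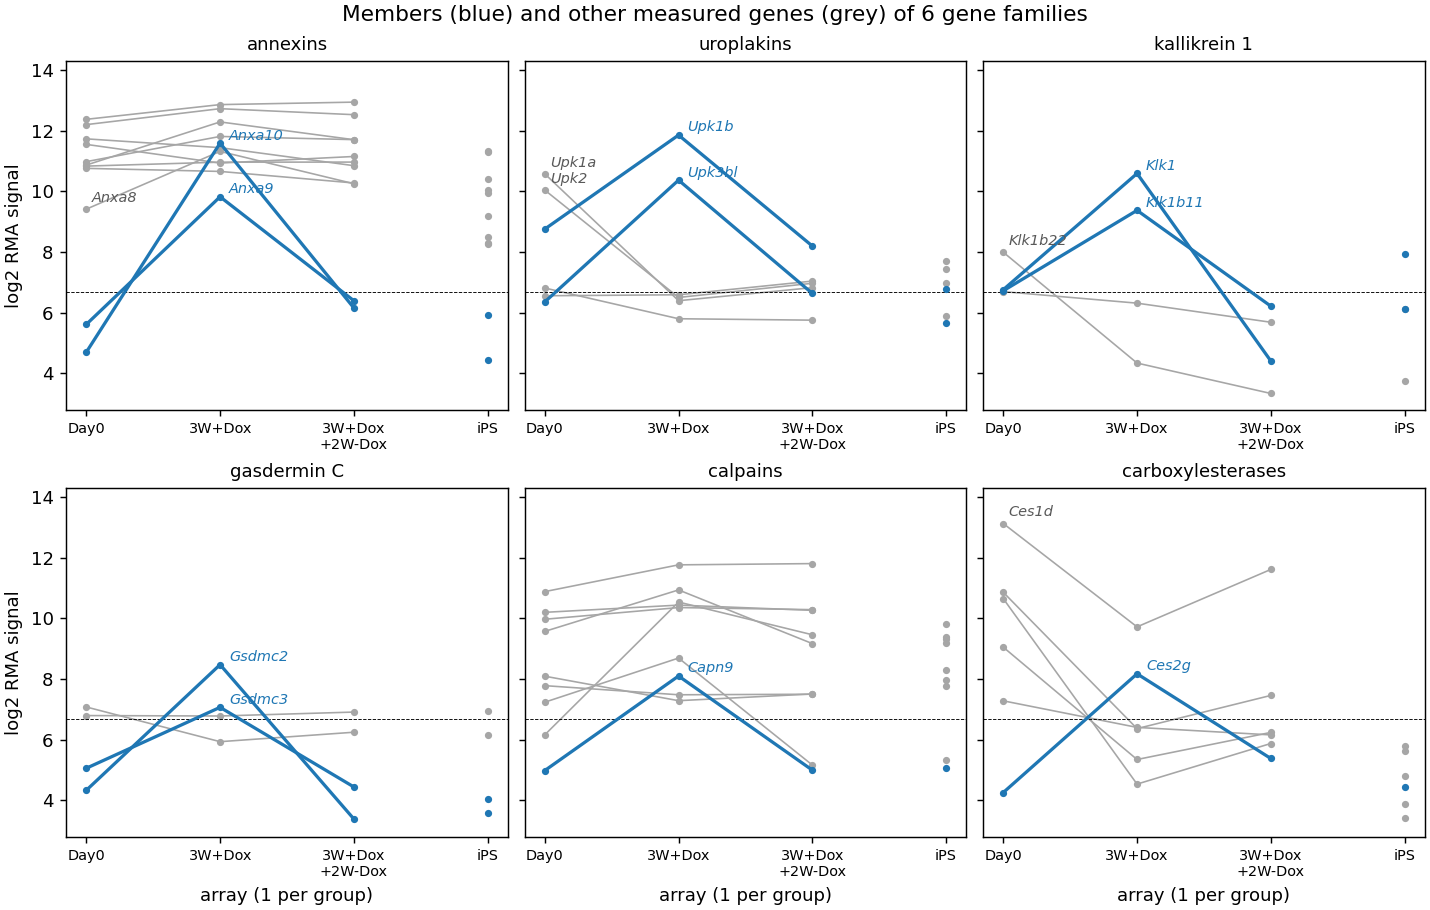
Log2 signal of members (blue) and of other measured genes (grey) that reached the median on at least 1 array, in 6 gene families over the 4 arrays, with the dashed line at the median of all values. Only changes along a line can be read. Upk1a, Upk2, Klk1b22 and most carboxylesterases are lower at 3W+Dox than at Day0, where the members of their families are higher.

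For 55 of the members the measured genes on either side were looked up, giving 110 positions, of which 6 (5.45%) held a gene with a peak of at least 2-fold, against 1.14% of all named genes. Gsdmc2 and Gsdmc3 filled 2 of these as each other's neighbours. The others, 4 of 108 positions (3.70%), were Padi2 beside Padi1, Cdsn beside 2300002M23Rik, Ptpn22 beside Bcl2l15 and Ndnf beside Tnip3. The median peak of the flanking genes was -0.09 log2 units, against -0.22 over all named genes.

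RefSeq promoter windows, 250 bases before to 50 after the annotated start on GRCm38.p6, were found for 39 members. Their median count of CpG dinucleotides was 5, against 15 in 15792 protein-coding genes measured on the arrays and 7 in all 27025 genes of the table. GC content was 54.3% at the median, against 57.3% in the measured protein-coding genes. A set of 18 motifs was searched on both strands, and the choice of motifs was made with the members known.

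The letters TGANTCA of AP-1 were found in 8 of the 39 windows (20.5%), against 7.93% of all windows. Within the 100 bases before the start the shares were 12.8% and 2.70%. The upstream matches other than those of Anxa10 are shown because they let the position and the flanking bases be compared. Capitals mark the match, which is flanked by up to 25 bases, and a match is a description of letters and not evidence of binding.
AA467197, chr2:122637789-122637845, + strand: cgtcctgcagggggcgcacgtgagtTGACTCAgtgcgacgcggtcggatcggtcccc
Scel, chr14:103513280-103513336, + strand: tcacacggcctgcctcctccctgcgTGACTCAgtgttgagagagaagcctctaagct
Tspan15, chr10:62231219-62231255, - strand: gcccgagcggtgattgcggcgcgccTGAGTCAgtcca
Slc37a2, chr9:37255814-37255870, - strand: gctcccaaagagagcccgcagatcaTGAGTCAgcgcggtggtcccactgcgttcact
Sdcbp2, chr2:151572554-151572610, + strand: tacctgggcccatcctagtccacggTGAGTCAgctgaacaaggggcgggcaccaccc
Syt8, chr7:142434653-142434709, + strand: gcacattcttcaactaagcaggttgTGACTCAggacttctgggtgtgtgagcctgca
Ms4a8a, chr19:11081316-11081353, - strand: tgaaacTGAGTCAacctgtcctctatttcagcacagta
The first base of the match lies 73 bases before the start in AA467197, 36 in Scel, 12 in Tspan15, 107 in Slc37a2, 44 in Sdcbp2, 172 in Syt8 and 244 in Ms4a8a. In Anxa10 the 2 matches begin 180 and 16 bases before the start.

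The letters GGGTGTGG, known to be bound by KLF4, were found in 6 of the 39 windows (15.4%), against 3.57% of all windows. Within the 100 bases before the start the shares were 5.13% and 1.52%. On the other strand the match reads CCACACCC, and each match also contains the shorter KLF core CACCC on 1 of the strands, which was found in 74.4% of the members' windows and 56.7% of all. The 5 upstream matches are shown with the match in capitals, and that of Anxa9 lies after the start.
Upk3bl, chr5:136057064-136057121, + strand: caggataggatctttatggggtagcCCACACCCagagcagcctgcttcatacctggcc
Bcl2l15, chr3:103832634-103832691, + strand: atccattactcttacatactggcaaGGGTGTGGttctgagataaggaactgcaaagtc
Avil, chr10:127000510-127000567, + strand: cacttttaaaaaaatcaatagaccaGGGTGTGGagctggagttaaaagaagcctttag
Fxyd4, chr6:117937455-117937512, - strand: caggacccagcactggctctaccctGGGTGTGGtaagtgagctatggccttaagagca
Ms4a8a, chr19:11081141-11081198, - strand: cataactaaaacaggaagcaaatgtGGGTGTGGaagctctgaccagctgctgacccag
Ms4a8a held both an AP-1 and a KLF4 match. It encodes a membrane protein of the MS4A family, and its difference between 3W+Dox+2W-Dox and Day0 was -0.62 log2 units.

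For the other motifs the shares in the 300-base windows were as follows. ETS letters AGGAAG were found in 46.2% of the members' windows and 35.1% of all, NF-κB letters GGGA and CC with 4 bases of any kind between them in 28.2% and 20.5%, C/EBP letters TTGCNNAA in 15.4% and 10.8%, and SOX letters CATTGT in 15.4% and 12.8%. STAT letters TTCNNNGAA were found in 7.69% and 8.47%, GRHL letters AACNNGTT in 5.13% and 4.19%, FOX letters TGTTTAC in 5.13% and 3.55%, and octamer letters ATGCAAAT in 2.56% and 1.75%. Lower shares in the members were found for the GC box GGGCGG, with 30.8% and 35.9%, the CCAAT box, with 28.2% and 37.9%, the GATA letters AGATAA, with 7.69% and 11.4%, the TATA box TATAAA, with 7.69% and 14.2%, and the E-box CACGTG of MYC, with 2.56% and 7.24%. HNF4 letters CAAAGTCCA and those of the p53 family, a pair of CATG with 5 bases of any kind between them, were found in 0 of the 39 windows and in 0.477% and 0.514% of all. Within the 100 bases before the start, NF-κB letters were found in 20.5% of the members' windows and 8.19% of all, SOX letters in 10.3% and 4.31%, FOX letters in 5.13% and 1.08%, ETS letters in 20.5% and 13.8%, and C/EBP letters in 0 of 39 and 3.39%. The windows of all genes include genes not measured here. Among measured protein-coding genes the 300-base shares were 49.0% for the GC box, 23.2% for NF-κB and 59.4% for the KLF core. They were 7.10% for AP-1 and 3.71% for KLF4. With 39 windows, 1 window is 2.56%, so the members' shares rest on few genes.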

How the data were processed

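RNA of 4 mouse cell populations was measured on Affymetrix arrays, 1 per group, and groups were taken from the sample titles. The deposited table holds log2 signals, which the authors made with RMA in the affy package under R 3.0.2, per the submitters' processing notes. RMA corrects background, makes the arrays' distributions equal and summarises the probes of a set, which narrows differences of dim genes. The values themselves show the log2 scale. Neither the annotation version nor the genome build is given in the sources used here. Array medians lay between 6.60 and 6.74. Of 25206 probe sets, named by Entrez gene ID, 23185 had 1 symbol, each gene with 1 probe set, and 2021 had none and were left out.

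Differences of log2 signals were computed in Python 3.11.15 with pandas 2.3.3 and numpy 2.4.6. The rule was also run on simulated copies of the Day0 array with an assumed noise of 0.3 log2 units. Peaks were planted only in genes at or above the median at Day0, so the run does not cover the 42 members that were dim there. With 1 array per group no test was made. The members, the 29 gene lists, the function groups and the motifs were chosen with earlier results of these data known, and 2 lists, the function groups and the motifs after the values were seen. Values on all arrays are given for the 30 largest peaks, members in a list, members with an iPS signal within 2-fold of 3W+Dox or above it, and the 5 genes on each side of the threshold; some relatives of members in families holding at least 2 members are also named. Other genes were named after their values were seen. Promoter windows came from RefSeq on GRCm38.p6. Alternatives were other peak sizes, brightness floors and array scalings, the families kept in, a shorter promoter window, and tandem families left out.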

Additional observations from a re-analysis of the deposited data

How the results depend on the processing

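The size of the peak set the number of genes: 237 reached 1 log2 unit and 19 reached 3, against 56 at 2. Other floors, scalings and keeping the families gave 38 to 73. The median of iPS minus Day0 over the members, 0.01 log2 units, was between -0.003 and 0.04 under other scalings, so its sign is not determined. With dim defined by the 25th percentile in place of the median, 15 members (26.8%) were dim in iPS cells, against 24.2% of all named genes. The difference at the median, 40 of 56 against 48.9%, was thus nearly gone. At the median, 42 of 56 were dim at Day0 too, where the rule favours low signals. The members at least 4-fold lower in iPS cells numbered 45 to 52 at lower thresholds or other scalings, and 36 at 3 log2 units. The median share undone ran between 89.0% and 93.8%. Some members were lost under other settings: Esp8, dim on the other arrays, had a peak of 1.7 with dim values raised to the 25th percentile, and of those near the threshold Gsdmc3 had just under 2.00 there and after a second quantile normalization, Apol7a 1.98 after that normalization, and Mmp9 1.97, Tmem45b 1.95 and Tenm3 1.94 after centring. Without tandem or multicopy families, a setting added after seeing the data, 32 of 46 members were dim in iPS cells. No paired analysis was possible because each group has 1 array. Signals near background limit the differences of dim genes, and no library could be left out.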

Other observations

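Of the 2021 probe sets without a gene symbol, 3 also met the peak rule. They have no symbol in the annotation used and were not described further.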
